A study of Homo sapiens with 8 samples.

Results

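The replication-dependent histone genes encode the bulk of the H1, H2A, H2B, H3 and H4 proteins on which DNA is wound. They lie in clusters on chromosomes 6 and 1, mostly lack introns, and are transcribed at histone locus bodies, nuclear sites that form around the coactivator NPAT. Their transcripts carry no poly(A) tail and end in a conserved stem-loop, which the stem-loop binding protein SLBP holds from processing to translation. They accumulate in S phase, when new DNA needs histones, and are degraded when replication stops. Of the 13842 genes in the table, 61 were members of the family, chosen by their gene name (a clustered histone or linker histone cluster member, pseudogenes left out) after their response to the vector had been seen. There were 5 H1, 14 H2A, 16 H2B, 13 H3 and 13 H4 genes, 50 of them on chromosome 6 and 11 on chromosome 1.

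Total RNA was sequenced from MCF10A, an immortalised normal breast epithelial line, and DCIS.COM, a ductal carcinoma in situ line of the MCF10A lineage. Each line had been stably transduced with the lentiviral vector pLOC-empty or with pLOC-MALINC1, which carries the long non-coding RNA MALINC1, so that the vector backbone and the blasticidin selection were common to the 4 groups. Each group held 2 libraries, and the medium differed between the lines: that of MCF10A held EGF, insulin, hydrocortisone and cholera toxin beside serum, that of DCIS.COM horse serum alone. MALINC1 itself was at 1.0 and 1.51 CPM (normalised read counts, scaled to a common library size) in MCF10A pLOC-empty against 13.2 and 11.7 CPM in MCF10A pLOC-MALINC1, and at 1.35 and 1.15 CPM in DCIS.COM pLOC-empty against 24.5 and 19.2 CPM in DCIS.COM pLOC-MALINC1, in the direction of the labels. All values below are CPM in the order of replicates 1 and 2, and a log2 fold change is pLOC-MALINC1 over pLOC-empty unless another pair is named.

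The libraries held 20604377 to 37550457 reads on genes. Of the 10 breast epithelial markers, 10 were in the table, against 1 of the fibroblast markers (COL1A1), 2 of the leukocyte markers (CD14 and CD68) and 1 of the endothelial markers (PECAM1), each at most 15.9 CPM in every library. With pLOC-MALINC1, 8 of the 10 epithelial markers were called higher in MCF10A (80%, against 21.5% of all genes) and 0 lower (against 18.1%). Their median log2 fold change was 0.54, with TP63 at 3.04. In DCIS.COM 3 of these markers were higher (30%, against 16.4% of all genes) and 3 lower (30%, against 16.7%). Their summed level was 21651 and 21819 CPM in MCF10A pLOC-empty against 29455 and 28769 CPM in MCF10A pLOC-MALINC1, and 8300.4 and 8398 against 8384 and 8495 CPM in DCIS.COM. Of the other markers, CD68 went from a mean of 3.56 to 7.0 CPM and PECAM1 from 6.64 to 0.132 CPM in DCIS.COM, and COL1A1 from 15.5 to 7.0 CPM in MCF10A. Their part in the results was not tested. In bulk RNA a lower share of cells in S phase and less histone RNA in each such cell cannot be told apart.

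The end of the transcript is the feature that sets these mRNAs apart, so the stem-loops are shown first, as DNA letters of GRCh37 on the gene's strand, with the stem in capitals and the loop in lower case. A stem-loop was found for 60 of the 61 members, in 10 forms. The first form was held by 34 genes, 4 of them H1 and 10 each H2A, H2B and H3, and by no H4 gene. The second was held by H2BC5, H1-1, H2BC7, H2BC4, H3C8, H2BC11, H2BC12 and H2AC21. The 13 H4 genes had a stem of their own, with the third form in 8 of them (H4C1, H4C2, H4C3, H4C4, H4C5, H4C6, H4C8 and H4C11), the fourth in 4 (H4C9, H4C12, H4C14 and H4C15) and the last in H4C13 alone.
form 1: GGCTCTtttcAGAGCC
form 2: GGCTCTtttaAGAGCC
form 3: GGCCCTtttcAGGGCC
form 4: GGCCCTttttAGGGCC
H4C13: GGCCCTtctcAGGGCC

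The 200 bases before the transcription start are shown next, for 4 of the members with the largest responses in DCIS.COM (H1-1, H3C1, H2BC6 and H2BC14), for H4C5 as the H4 gene with the largest difference between the responses of the lines, and for 3 H4 genes at or near 0 in DCIS.COM (H4C6, H4C9 and H4C13). The letters were taken from RefSeq promoters (GRCh38.p14) that matched GRCh37 exactly, and coordinates are of GRCh37. Capitals mark the TATA box letters TATAAA, the CCAAT box and the octamer ATTTGCAT, on either strand, the octamer being the site known for the histone H2B factor Oct-1.
H1-1 (chr6:26018016-26018215, minus strand): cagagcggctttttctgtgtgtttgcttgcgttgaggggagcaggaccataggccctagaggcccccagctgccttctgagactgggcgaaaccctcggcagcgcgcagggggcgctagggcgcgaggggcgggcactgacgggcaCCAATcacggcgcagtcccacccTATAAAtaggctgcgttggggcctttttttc
H3C1 (chr6:26020479-26020678, plus strand): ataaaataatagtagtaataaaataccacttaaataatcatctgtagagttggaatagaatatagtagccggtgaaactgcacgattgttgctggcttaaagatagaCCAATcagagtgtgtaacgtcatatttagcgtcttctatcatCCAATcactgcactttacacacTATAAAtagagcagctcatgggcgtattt
H2BC6 (chr6:26183789-26183988, plus strand): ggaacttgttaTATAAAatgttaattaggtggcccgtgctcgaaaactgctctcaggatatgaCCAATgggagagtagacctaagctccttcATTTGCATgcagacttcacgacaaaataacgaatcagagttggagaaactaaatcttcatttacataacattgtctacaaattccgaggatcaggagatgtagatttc
H2BC14 (chr6:27782600-27782799, plus strand): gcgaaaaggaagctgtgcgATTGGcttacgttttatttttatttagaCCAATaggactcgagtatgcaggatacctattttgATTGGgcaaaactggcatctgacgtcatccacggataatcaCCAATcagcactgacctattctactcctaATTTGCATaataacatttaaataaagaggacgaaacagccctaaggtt
H4C5 (chr6:26204638-26204837, plus strand): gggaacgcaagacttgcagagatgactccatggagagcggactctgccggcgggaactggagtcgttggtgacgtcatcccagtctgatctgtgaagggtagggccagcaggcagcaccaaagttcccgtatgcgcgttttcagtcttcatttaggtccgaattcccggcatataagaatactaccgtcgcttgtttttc
H4C6 (chr6:26240421-26240620, plus strand): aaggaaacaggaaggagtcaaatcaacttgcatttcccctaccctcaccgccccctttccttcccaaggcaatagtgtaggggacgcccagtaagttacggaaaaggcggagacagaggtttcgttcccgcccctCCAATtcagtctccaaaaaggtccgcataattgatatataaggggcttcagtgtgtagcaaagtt
H4C9 (chr6:27106861-27107060, plus strand): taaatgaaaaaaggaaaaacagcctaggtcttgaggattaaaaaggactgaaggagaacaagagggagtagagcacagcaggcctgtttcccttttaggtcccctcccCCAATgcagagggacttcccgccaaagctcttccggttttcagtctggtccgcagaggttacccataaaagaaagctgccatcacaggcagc
H4C13 (chr6:27841313-27841512, minus strand): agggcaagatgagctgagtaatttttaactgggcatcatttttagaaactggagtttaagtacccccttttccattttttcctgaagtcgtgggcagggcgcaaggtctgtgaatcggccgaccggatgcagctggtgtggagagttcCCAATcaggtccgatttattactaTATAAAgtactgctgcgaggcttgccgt

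RefSeq promoters (250 bases before to 50 after the start) were found for 56 of the 61 members. TATAAA stood in 67.9% of them against 11.5% of all 35116 promoters, both strands being searched, so that the motif can overlap its own reverse complement. CCAAT stood in 85.7% against 34.6%, in every H1, H2A, H2B and H3 promoter matched but in only 3 of 11 H4 promoters. Those 3 were H4C6, H4C9 and H4C13, the 3 H4 genes at or near 0 in DCIS.COM, an overlap that was seen after the values were known. The octamer stood in 41.1% against 1.77%, in 13 of 16 H2B, 9 of 13 H2A and 1 of 11 H3 promoters. AAACACA, the letters of the H1 box, stood in 14.3% against 5.64%, and in all 5 H1 promoters. A match describes letters in a window and no bound factor.

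With pLOC-MALINC1 the family moved in opposite directions in the 2 lines. Since the vector comparisons are the ones on which the family was selected, its values there are a description and carry no test. Summed over the 61 genes, MCF10A pLOC-empty held 17003 and 17237 CPM and MCF10A pLOC-MALINC1 12385 and 12127 CPM, a ratio of means of 0.716. DCIS.COM pLOC-empty held 10642 and 10309 CPM and DCIS.COM pLOC-MALINC1 16955 and 17660.2 CPM, a ratio of 1.65. The groups of a line did not overlap in either line.

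In MCF10A 58 of the 61 genes were called lower (limma, adjusted p below 0.01 over all genes) and 0 higher, where 18.1% of all genes were called lower and 21.5% higher. The median log2 fold change was -0.49, and near 0 over all genes. In DCIS.COM 57 were called higher and 0 lower, where 16.4% of all genes were called higher and 16.7% lower. The median over these 57 genes was 0.73 on the log2 scale, against 0.0089 over all genes. These 57 were also called lower in MCF10A, and 3.61% of all genes had this pair of calls. Their folds ranged from 0.460 to 0.793 in MCF10A, with a median of 0.704, and from 1.36 to 2.35 in DCIS.COM, with a median of 1.66. Few passed 2-fold as well: 1 gene in MCF10A (2.51% of all genes were that far lower) and 5 in DCIS.COM (1.44% of all genes were that far higher). The difference between the responses, DCIS.COM minus MCF10A, was called above 0 for 57 members, where 15.6% of all genes were called above 0. It was over 2-fold as well for 52 members, against 3.98% of all genes. With the same 57 genes, the SD of the log2 fold change was 0.131 in MCF10A and 0.158 in DCIS.COM, against a median SE of a single gene of 0.042.

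**Figure D1:**
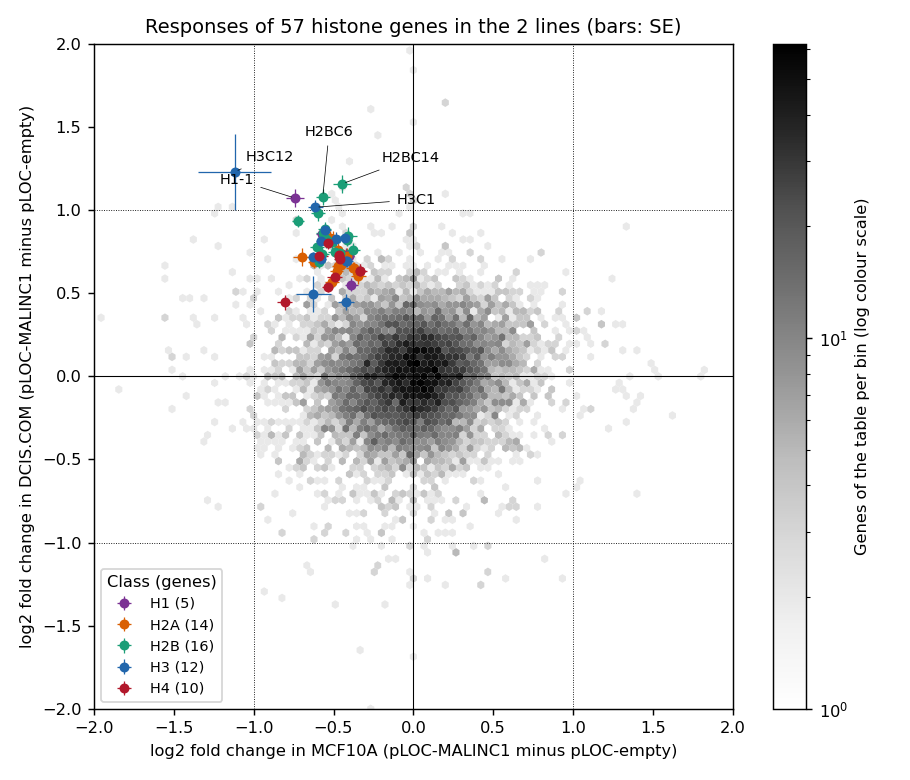
Log2 fold change of the 57 histone genes above 3 reads in DCIS.COM, in MCF10A (horizontal) and in DCIS.COM (vertical), pLOC-MALINC1 over pLOC-empty, coloured by class with bars of 1 SE; grey cells count all genes of the table on a log colour scale. The histone points lie where the MCF10A value is below 0 and the DCIS.COM value above 0, and H3C12 has the longest bars.

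The 5 classes moved by like amounts. The summed level of the H1 genes, which bind the linker DNA between nucleosomes, was 2511 ± 51.6 CPM (SD, n = 2) in MCF10A pLOC-empty and 1809 ± 62.6 CPM in MCF10A pLOC-MALINC1, and 1257 ± 13.5 and 2064 ± 68.0 CPM in the same groups of DCIS.COM. The ratio of summed levels in MCF10A was 0.720 for H1, 0.723 for H2A, 0.698 for H2B, 0.706 for H3 and 0.731 for H4. In DCIS.COM it was 1.64 for H1, 1.63 for H2A, 1.76 for H2B, 1.66 for H3 and 1.59 for H4. H2B, which pairs with H2A in the nucleosome core, had the ratio farthest from 1 in both lines, and H4, which pairs with H3, the nearest. The H1 share of all histone reads differed more between the lines than with the vector: MCF10A held 14.7% with the empty vector and 14.8% with MALINC1, and DCIS.COM 12% and 11.9%.

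**Figure D2:**
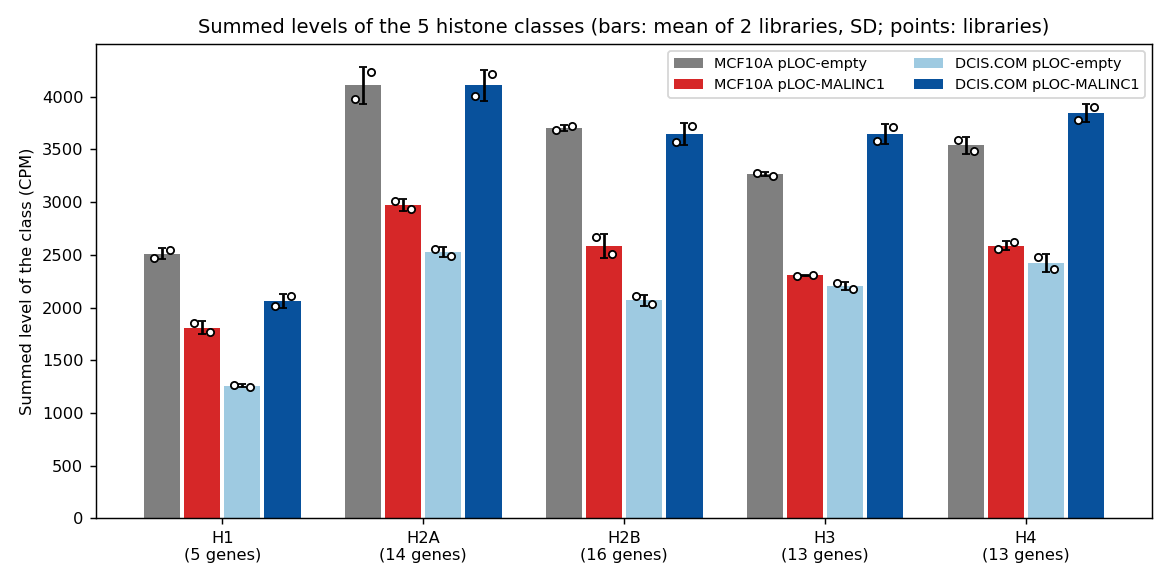
Summed CPM of the members of each class, with a bar for the mean of the 2 libraries of a group, a whisker for the SD and a point for each library. In each class the MCF10A pLOC-MALINC1 bar is below the MCF10A pLOC-empty bar, and the DCIS.COM pLOC-MALINC1 bar is above the DCIS.COM pLOC-empty bar.

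Among the H1 genes, H1-2 and H1-4 had the highest mean level over the 8 libraries. H1-2 was at 621 and 654 CPM in MCF10A pLOC-empty, 496 and 478 in MCF10A pLOC-MALINC1, 438 and 446 in DCIS.COM pLOC-empty, and 627 and 667 in DCIS.COM pLOC-MALINC1. Its response was the smallest of the class, at -0.39 in MCF10A and 0.55 in DCIS.COM on the log2 scale. H1-1 was at 149 and 152, 95.6 and 84.9, 99.7 and 91.1, and 202 and 199 CPM in the same order of groups. Its log2 fold changes of -0.74 and 1.07 made it the H1 gene with the largest difference between the lines, 1.81. H1-4 lay between them, with fold changes of -0.41 and 0.72. In each of the 3 genes the libraries of the vector groups did not overlap within a line. With 2 libraries per group this is common among all 13842 genes. In MCF10A 5371 of them were higher and 5219 lower without overlap, and in DCIS.COM 5213 and 4899.

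Of the H2A genes, H2AC18 and H2AC19 were the most abundant, and their sequences are near-identical. H2AC18 was at 629 and 652, 498 and 492, 523 and 506, and 778 and 838 CPM, and H2AC19 had the same rounded values but for 487 in place of 492 CPM. The largest difference between the lines' responses in the class was that of H2AC11, at 369 and 412, 249 and 232, 161 and 152, and 251 and 263 CPM, with log2 fold changes of -0.70 and 0.72. The smallest was that of H2AC16, at 128 and 141, 109 and 103, 46.3 and 48.9, and 71.9 and 73.1 CPM, with fold changes of -0.34 and 0.61. H2AC11 had the larger change in MCF10A, and in DCIS.COM the changes were closer.

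Of the H2B genes, H2BC12 and H2BC18 were the most abundant. H2BC18, on chromosome 1, was at 271 and 274, 193 and 176, 279 and 274, and 495 and 509.9 CPM, with log2 fold changes of -0.57 and 0.86. H2BC12 was at 392 and 411, 322 and 296, 235 and 228, and 385 and 400.5 CPM, with the smallest difference between the lines' responses in the class, 1.14. H2BC7 had the largest, 1.66, and was at 169 and 168, 105 and 99.2, 45.6 and 45.3, and 87.5 and 86.7 CPM. Over 2-fold in DCIS.COM were H2BC6, which went from 46.4 and 45.4 to 95.5 and 98.7 CPM, and H2BC14, which went from 31.3 and 27.6 to 65.6 and 66.0 CPM. Both were lower with pLOC-MALINC1 in MCF10A, H2BC6 from 73.8 and 70.8 to 50.6 and 47.1 CPM and H2BC14 from 77.2 and 75.2 to 56.5 and 55.4 CPM.

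Of the H3 genes, H3C14 and H3C15, again near-identical, were the most abundant. H3C14 was at 514 and 503, 379 and 386, 491 and 478, and 772 and 794 CPM, with log2 fold changes of -0.41 and 0.69, and the difference for H3C15 was 1.11 against 1.10 for H3C14. H3C1 was at 169.5 and 172, 113 and 109.7, 81.9 and 74.0, and 156 and 159.8 CPM, with fold changes of -0.61 and 1.02. H3C12 had the largest fold changes of the family, -1.12 (SE 0.23) and 1.23, at the lowest mean level of the 61 members over the 8 libraries: 105 and 96, 76 and 39, 11 and 15, and 48 and 56 reads. It was the 1 gene over 2-fold in MCF10A. Its fold change there was -0.87 without MCF10A pLOC-MALINC1 replicate 2 and -1.01 without MCF10A pLOC-empty replicate 2, and in neither case was it called over 2-fold. The 5 genes over 2-fold in DCIS.COM became 3 (H1-1, H2BC6 and H2BC14) without DCIS.COM pLOC-MALINC1 replicate 2 and 9 on plain library totals.

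Of the H4 genes, the near-identical H4C14 and H4C15 were the most abundant. H4C14 was at 508 and 488, 385 and 404, 551 and 533, and 813 and 871 CPM, with log2 fold changes of -0.33 and 0.64 and a difference between the lines of 0.97, which with that of H4C15 was the smallest among the 10 H4 genes above 3 reads in DCIS.COM. H4C5 had the largest, 1.34, at 317 and 323, 227 and 216, 162 and 157, and 272 and 285 CPM. H4C1, the H4 gene with the largest decrease in MCF10A and the smallest increase in DCIS.COM, was at 73.7 and 77.1, 42.2 and 43.9, 50.7 and 49.2, and 66.0 and 70.1 CPM. The libraries of the vector groups did not overlap within either line for these genes, which is common among all genes, as given for H1.

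**Figure D3:**
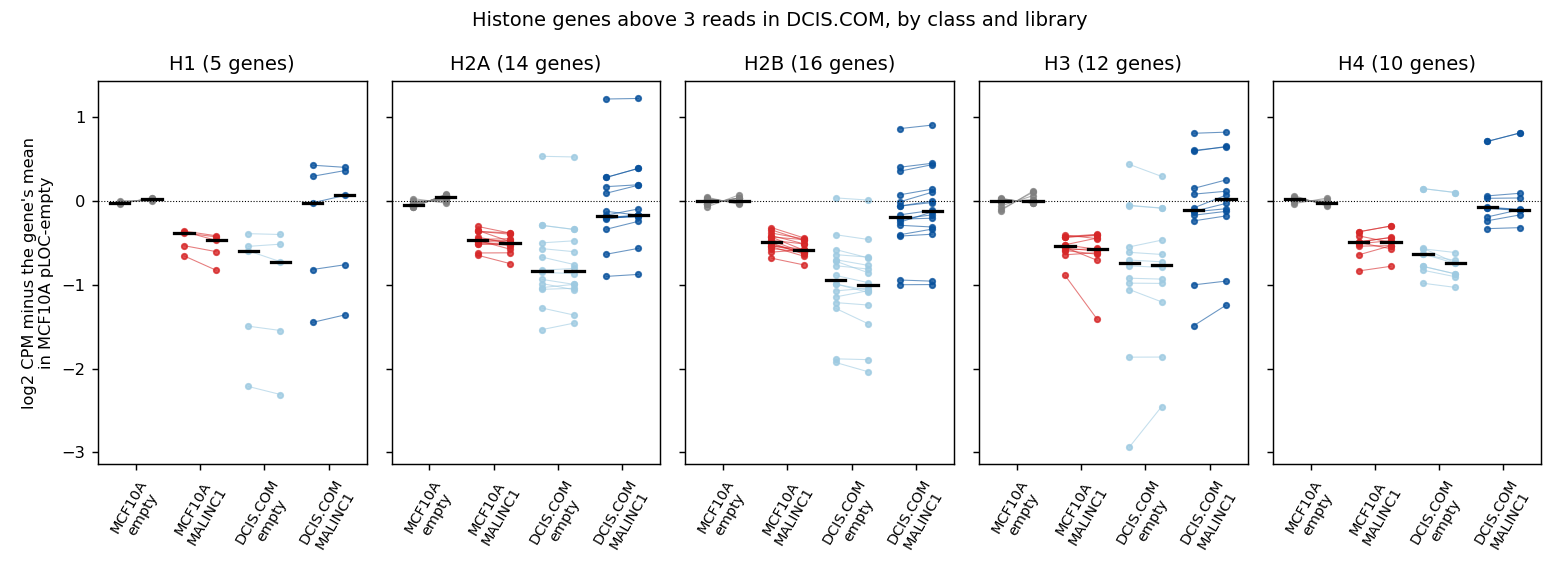
Log2 CPM of the 57 histone genes above 3 reads in DCIS.COM in each of the 8 libraries, minus the gene's mean in MCF10A pLOC-empty, in 1 panel per class; points are genes, thin lines join a gene's replicates and black bars are medians. The MCF10A pLOC-MALINC1 points all lie below 0, the DCIS.COM pLOC-empty points spread most widely, and the DCIS.COM pLOC-MALINC1 medians are near 0.

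Replicates lay close together compared with these responses. Over the 57 genes the median absolute log2 difference between the 2 libraries of a group was 0.054 in MCF10A pLOC-empty, 0.055 in MCF10A pLOC-MALINC1 and 0.049 in both groups of DCIS.COM. The largest difference in each group was that of H3C12. As 10 members share over 50% of their 76-base windows with another member (among them H2AC18 with H2AC19, H3C14 with H3C15, H4C14 with H4C15 and H4C11 with H4C12), the counting could split reads between copies, and their single values are uncertain. Without these 10 genes 48 of 51 members were called lower in MCF10A and 47 of 51 higher in DCIS.COM.

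Levels of different genes were compared per kb of gene length (CPM per kb), for the 59 members with a length under 1000 bases. With pLOC-empty the H4 genes H4C12 (1292 CPM per kb), H4C14 (1273) and H4C11 (1268) led in MCF10A, H4C15 being the near-identical copy of H4C14. In DCIS.COM H4C14 and H4C15 led, at 1386 CPM per kb each, before H2AC18 at 974. H4C11 and H4C12 share 93.2% of their windows with another member, and H4C14, H4C15 and H2AC18 share 100%. The levels and ranks of these leaders, and the H4 sum used below, may therefore depend on how shared reads were counted. That dependence was not tested. H1-5 changed its place most plainly, from rank 7 at 1039 CPM per kb in MCF10A to rank 38 at 217 CPM per kb in DCIS.COM. Summed per kb, the H1 genes came to 36.2% of the H4 sum in MCF10A pLOC-empty and to 26.7% in DCIS.COM pLOC-empty, and the H2B genes to 86.2% and 70.3%.

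Between the lines, 3 H4 genes and 1 H3 gene stood apart: they were expressed in MCF10A and at or near 0 in every DCIS.COM library, with either vector. H4C13 (Entrez Gene 8368) was at 118 and 113 CPM in MCF10A pLOC-empty and 95.7 and 95.6 CPM in MCF10A pLOC-MALINC1, with 0 reads in all 4 DCIS.COM libraries. H4C6 (8361) was at 56.7 and 49.1, then 31.5 and 33.3 CPM, and H3C11 (8354) at 36.7 and 36.9, then 30.3 and 28.4 CPM, again with 0 reads in DCIS.COM. H4C9 (8294) was at 40.2 and 40.1, then 30.9 and 27.9 CPM, and had 1 or 2 reads in each DCIS.COM library. Against a limit of 3 reads per library for a count of 0, DCIS.COM was at least 818-fold lower for H4C13, 374-fold lower for H4C6 and 260.1-fold lower for H3C11 with pLOC-empty. With pLOC-MALINC1 the bounds were 1087-fold for H4C13, 368-fold for H4C6 and 334-fold for H3C11. For H4C9 the ratio was 567 with pLOC-empty (95% exact interval 194 to 2753, counting error only) and 1009 with pLOC-MALINC1 (279 to 8341). Among all genes 81, or 0.585%, were at 5 CPM or more in MCF10A pLOC-empty and at this floor throughout DCIS.COM.

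These 4 genes accounted for the members not called in DCIS.COM. In MCF10A, H3C11, H4C9 and H4C13 were also the 3 members not called, though each was lower with pLOC-MALINC1 in value. H4C6 was called in MCF10A, but not once any 1 of the 4 MCF10A libraries was left out, with log2 fold changes between -0.60 and -0.81. A gene without reads enters the fit at a fixed value, so that the DCIS.COM groups gave no spread for H3C11, H4C6 and H4C13. The fit also sets part of a gene's spread by its mean level over all 8 libraries, which the DCIS.COM values lower. Under the alternatives the count called in MCF10A reached 61, so the missing calls depend on the fit.

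The comparison of the lines was not itself used to choose the family, but it uses the same libraries, and earlier results had been seen. The line difference with pLOC-MALINC1 minus that with pLOC-empty equals the difference between the responses, on which the family was chosen. The calls and p-values given for the line comparisons therefore describe these genes and carry no independent test. With pLOC-empty 54 of 61 genes were lower in DCIS.COM and 2 higher (limma, adjusted p below 0.01), with 36.0% of all genes lower and 37.9% higher. The median log2 difference, DCIS.COM minus MCF10A, was -0.83, against 0.031 over all genes, and 23 genes were over 2-fold lower, against 13% of all genes. With pLOC-MALINC1 48 were higher in DCIS.COM and 10 lower, where 35.7% of all genes were higher and 37.2% lower, and the median was 0.39, against 0.0055 over all genes. By class, the median with pLOC-empty was -0.66 for H1, -0.84 for H2A, -0.98 for H2B, -0.78 for H3 and -0.83 for H4. With pLOC-MALINC1 it was 0.41, 0.35, 0.31, 0.50 and 0.37 in the same order.

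The single genes spread widely around these medians. Apart from the 4 genes at or near 0, the largest deficits with pLOC-empty were those of H3C12, at -2.56 on few reads, and H1-5. H1-5 was at 809.6 and 836 CPM in MCF10A against 177 and 166 CPM in DCIS.COM, a log2 difference of -2.26 (SE 0.04, limma adjusted p = 1.36e-13). It remained lower with pLOC-MALINC1, at 568 and 541 against 301 and 320.5 CPM, a difference of -0.83. H2BC3 (-1.98), H2BC7 (-1.89), H3C3 (-1.86), H1-3 (-1.52) and H2AC16 (-1.49) followed with pLOC-empty, all called. H2AC21 and H3C13 went the other way. H2AC21 was at 54.3 and 52.3 CPM in MCF10A and 77.0 and 76.6 CPM in DCIS.COM with pLOC-empty, a difference of 0.53 (SE 0.04, limma adjusted p = 4.11e-08), and at 34.6 and 34.7 against 124 and 124 CPM with pLOC-MALINC1, a difference of 1.84. H3C13 was at 129 and 140.0 against 181 and 164 CPM with pLOC-empty, a difference of 0.36 (limma adjusted p = 1.8e-05). H2BC18, H3C14 and H4C14 differed by 0.02, -0.07 and 0.12 with limma adjusted p = 0.621, 0.0616 and 0.0148, which missed the threshold.

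The genes that were level or higher in DCIS.COM with pLOC-empty lie on chromosome 1. Members were divided into stretches wherever 400000 bases or more separated neighbours. The 11 genes of the chromosome 1 stretch (start sites 149783925 to 149859515, GRCh37) had a median difference of -0.07. Of these, 2 were higher (18.2%, against 37.9% of all genes) and 4 lower (36.4%, against 36.0%). H2AC18 and H2AC19, H3C14 and H3C15, and H4C14 and H4C15 of this stretch are near-identical, so the 11 genes are not 11 separate readings. On chromosome 6 the median was -0.82 over the 29 genes from 26018015 to 26285762 and -1.23 over the 5 genes from 27100574 to 27114885. It was -1.02 over the 15 genes from 27775707 to 27861203. All 49 were called lower, against 36.0% of all genes. With pLOC-MALINC1 the 11 genes of chromosome 1 were all higher in DCIS.COM, against 35.7% of all genes, with a median of 1.04. The medians of the chromosome 6 stretches were 0.41, 0.10 and 0.31. The responses to the vector differed less by place: in MCF10A the medians of the 4 stretches were -0.42, -0.57, -0.45 and -0.46, and in DCIS.COM, over genes above the floor, 0.69, 0.73, 0.76 and 0.82.

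Other genes of the same regions were compared in the same way. The 13 non-histone genes at 5 CPM or more within the chromosome 6 span had a median line difference of 0.11 with pLOC-empty. Of these, 5 were higher and 4 lower in DCIS.COM, where 37.9% of all genes were higher and 36.0% lower. The 555 such genes of chromosome 6 had a median of -0.10. With pLOC-MALINC1 these 13 genes had a median log2 fold change of -0.28 in MCF10A and -0.20 in DCIS.COM. No such gene lay within the chromosome 1 span. The 21 within 1000000 bases of it had a median of 0.25, and the 1184 of chromosome 1 one of 0.20. No test of the stretches against each other was made.

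**Figure D4:**
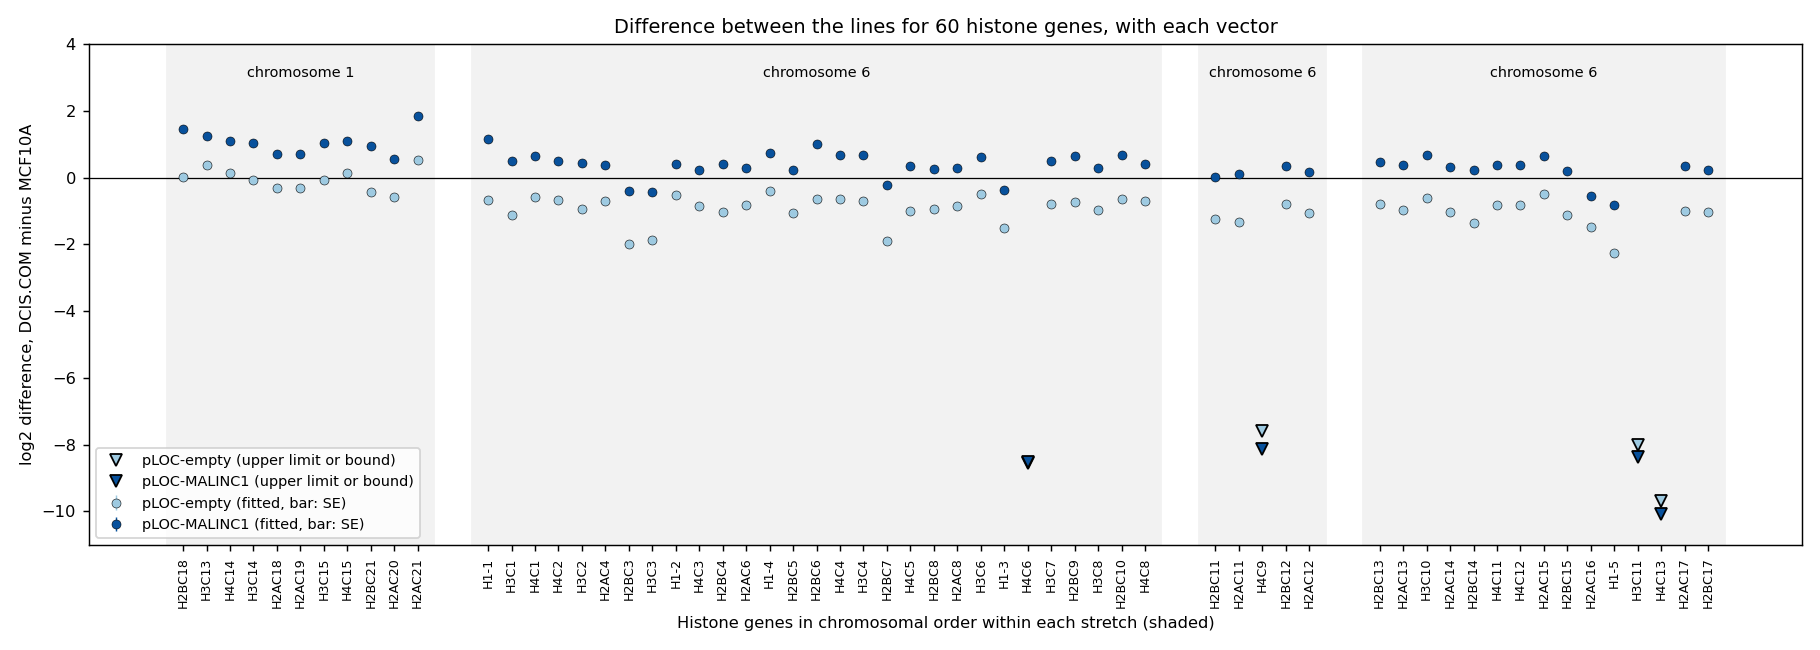
Log2 difference between DCIS.COM and MCF10A for 60 histone genes with pLOC-empty (light) and pLOC-MALINC1 (dark), genes in chromosomal order within the 4 stretches; circles are fitted values with bars of 1 SE, and triangles the limits for the 4 genes at or near 0 in DCIS.COM (for H4C9 the end of the interval nearest 0). With pLOC-empty the genes of chromosome 1 lie near 0 and those of chromosome 6 below it.

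In 9 cases an H2A and an H2B gene stood head to head, with start sites 194 to 248 bases apart. Between the members of such a pair the median absolute difference in log2 fold change was 0.076 in MCF10A and 0.098 in DCIS.COM. Over the 57 genes above the floor, the SD of the response was 0.131 in MCF10A and 0.158 in DCIS.COM, a different measure of spread. For the responses no value over any H2A with any H2B gene was computed, so whether pairs are more alike than other genes is not shown. The line differences of a pair with pLOC-empty differed by a median of 0.18, against 0.41 over any H2A with any H2B gene. That wider set includes genes on different chromosomes, whose line differences were unlike. The pair farthest apart in MCF10A was H2AC11 (-0.70) and H2BC11 (-0.42), and in DCIS.COM it was H2AC14 (0.83) and H2BC14 (1.16). These pairs share a promoter region, and are given without a test.

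The genes that make and break down histone mRNA were taken from a list of the pathway. Of 32 genes of histone pre-mRNA processing and turnover, 4 were higher (12.5%, against 21.5% of all genes) and 2 lower (6.25%, against 18.1%) in MCF10A, with a median of 0.04. In DCIS.COM 12 were higher (37.5%, against 16.4%) and 3 lower (9.38%, against 16.7%), with a median of 0.09. The same all-gene shares apply to the lists that follow. SLBP was at 97.7 ± 0.79 and 98.6 ± 3.26 CPM (SD, n = 2) in the vector groups of MCF10A, a log2 fold change of 0.01 (SE 0.04, limma adjusted p = 0.801). In DCIS.COM it rose from 66.3 ± 0.18 to 75.8 ± 0.043 CPM, by 0.19 (limma adjusted p = 0.00104). ZNF473, the zinc finger protein of the U7 particle that directs the cut after the stem-loop, rose in both lines, by 0.25 and 0.35 (limma adjusted p = 0.00829 and 0.00116). LSM10 (0.15 and -0.02) and LSM11 (0.16 and -0.12), the Sm-like proteins of that particle, were not called in either line. SNRPF, a core spliceosomal protein also in that particle, rose by 0.34 in MCF10A (limma adjusted p = 8.52e-05). Lower in both lines were TUT4, which adds uridines to histone mRNA (-0.55 and -0.29), and CTIF, a cap-binding factor of histone mRNA translation (-0.36 and -0.31).

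Of 18 genes of histone gene transcription, 3 were higher (16.7%) and 4 lower (22.2%) in MCF10A (median -0.10), and 10 higher (55.6%) and 1 lower (5.56%) in DCIS.COM (median 0.21). NPAT rose in DCIS.COM by 0.38 (limma adjusted p = 0.000258), and its value of -0.18 in MCF10A was not called (limma adjusted p = 0.0272). The difference between its responses was 0.56 (limma adjusted p = 0.000183). CASP8AP2, or FLASH, a partner of NPAT at the histone locus body, was at -0.17 (limma adjusted p = 0.0127, not called) and rose by 0.23 in DCIS.COM. E2F1 fell in MCF10A (-0.71) and rose in DCIS.COM (0.39), as did CCNE2, a cyclin E (-0.31 and 0.60). E2F4 rose in both lines (0.56 and 0.36), E2F2 in DCIS.COM (0.98), and CCNA2, or cyclin A2, fell in both (-0.20 and -0.21).

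Of 15 histone genes that the rule leaves out by name, most of them replication-independent variants, 1 was higher (6.67%) and 7 lower (46.7%) in MCF10A (median -0.19), and 5 were higher (33.3%) and 4 lower (26.7%) in DCIS.COM (median -0.04). H4-16, H2AW and H2BU1 are in this list but are known as genes of the replication-dependent kind. H2AX, the variant phosphorylated at DNA breaks, fell in MCF10A from 159 ± 3.97 to 135 ± 0.56 CPM and rose in DCIS.COM from 99.9 ± 1.48 to 136 ± 1.29 CPM. H4-16, an H4 gene outside the clusters, had log2 fold changes of -0.43 and 0.44, both called. H2AW and H2BU1, of a small cluster on chromosome 1, rose in DCIS.COM (0.94 and 0.99) and were at -0.11 and -0.06 in MCF10A, not called. H2AJ fell in both lines (-0.64 and -0.55). Of 27 histone chaperone genes, 4 were higher (14.8%) and 13 lower (48.1%) in MCF10A (median -0.13), and 9 higher (33.3%) and 4 lower (14.8%) in DCIS.COM (median 0.07). ASF1B, which hands H3 and H4 to the replication fork, fell in MCF10A (-0.36) and rose in DCIS.COM (0.33). CHAF1A, of chromatin assembly factor 1, was at -0.16 in MCF10A, not called, and rose in DCIS.COM (0.45). NAP1L1, an H2A and H2B chaperone, fell in both (-0.13 and -0.34), and IPO4, an H3 and H4 importer, rose in both (0.56 and 0.25).

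The calls among genes of S phase and DNA replication lay mostly in the directions of the histone calls. Of 48 genes, 0 were higher and 23 lower (47.9%) in MCF10A (median -0.18), and 30 were higher (62.5%) and 2 lower (4.17%) in DCIS.COM (median 0.29). The difference between the responses was called above 0 for 36 of them (75%, against 15.6% of all genes). It was called below 0 for 0 of them (against 20.3%), and the median was 0.40. With pLOC-empty 32 were lower in DCIS.COM than in MCF10A (66.7%, against 36.0% of all genes). Higher there were 5 (10.4%, against 37.9%), and the median was -0.38. E2F8, an E2F of late S phase, fell from 32.1 to 21.0 CPM in MCF10A and rose from 4.06 to 8.26 CPM in DCIS.COM, a difference between responses of 1.63 (limma adjusted p = 4.77e-07). Of 26 genes of G2 and M phase, 0 were higher and 17 lower (65.4%) in MCF10A (median -0.22), and in DCIS.COM 1 was higher (3.85%) and 14 lower (53.8%) (median -0.19), so that lower calls led in both lines. MKI67, a marker of cycling cells, was at -0.28 and 0.24, and CCNB1, or cyclin B1, fell by 0.70 on the log2 scale in DCIS.COM. A gene can be in more than 1 of these lists. The part of the share of cells in S phase in the histone values was not tested.

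**Figure D5:**
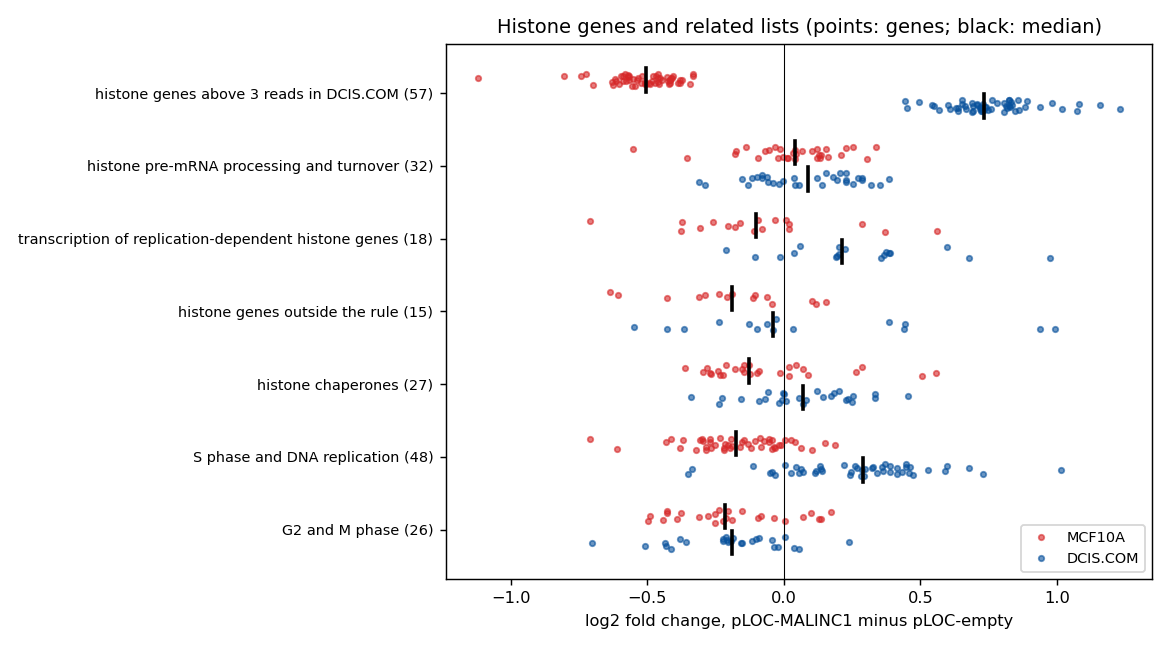
Log2 fold change with pLOC-MALINC1 in MCF10A (red) and DCIS.COM (blue) for the 57 histone genes above 3 reads in DCIS.COM and for each list of related genes, with a point for each gene and a black line at the median. The histone medians are -0.51 and 0.73, and the S phase medians -0.18 and 0.29.

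Small structural RNAs, which mostly lack a poly(A) tail as well, varied between libraries. Their 144 genes took 16% and 14.8% of reads in MCF10A pLOC-empty, 12.7% and 14.4% in MCF10A pLOC-MALINC1, 19.0% and 17.2% in DCIS.COM pLOC-empty, and 14.6% and 10.7% in DCIS.COM pLOC-MALINC1. By single gene, 17 of the 144 were higher (11.8%, against 21.5% of all genes) and 3 lower (2.08%, against 18.1%) in MCF10A (median 0.44). The summed share was lower with pLOC-MALINC1. In DCIS.COM 0 were higher and 24 lower (16.7%, the share of all genes too), with a median of -0.28. The histone genes took 1.62% and 1.66%, 1.18% and 1.15%, 1.06% and 1.05%, and 1.82% and 1.95% of reads in the same libraries. The part of the small RNA share in the histone values was not tested.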

How the data were processed

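RNA of 8 libraries (2 lines, 2 vectors, 2 replicates) was measured by strand-marking total RNA-seq with paired 76 nt reads. Per the study's methods, the authors used Rsubread (hg19) for alignment and featureCounts with UCSC knownGene models for counting, and deposited edgeR-normalized log2 CPM. How ribosomal RNA was kept out, tool versions and the strand setting of the counting are not given in the sources used here. A gene without reads has a value of 0.0713 CPM, which was subtracted before CPM were printed; log2 fold changes keep it and so understate the change of low genes. The low values stepped in whole reads (100% of values within 0.05 reads), and the recovered reads gave 5947 calls in MCF10A and 4968 in DCIS.COM by limma's voom, against 5485 and 4592 on the deposited log2 CPM.

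Each comparison was fitted with limma 3.58.1 (R 4.3.3) on the deposited values of all 13842 genes, with 1 mean per group, eBayes with trend and Benjamini-Hochberg adjustment over all genes, at the study's thresholds of 0.01 and 2-fold. Sums were made with pandas 2.3.3 and numpy 2.4.6 in Python 3.11.15, and figures with matplotlib 3.10.9. The script was tested on simulated data. Sequences came from RefSeq tables and GRCh37, and 60 of 61 members could be positioned.

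The members and lists were chosen with earlier results of these data known. Named are, in each class, the 2 most abundant members and those with the largest and smallest difference between responses, members over 2-fold or not called, and fixed or leading genes of each list. H1-5, H1-3, H2BC3, H3C3, H2AC21, H3C13, H4C1, the 2 members of a pair and the 3 H4 promoters with CCAAT were chosen after their values were seen. No source says that replicates were separate cultures, so p-values measure the spread between these libraries, which may be technical. Alternatives tried were other scalings, filters, pseudocounts, voom, no trend, groups fitted alone, a replicate block and a threshold of adjusted p below 0.05. Near-identical members, and each library in turn, were also left out. No sample column was left unmapped.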

Additional observations from a re-analysis of the deposited data

Results flagged for a closer look

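The response to pLOC-MALINC1 differed between DCIS.COM and MCF10A for 57 histone genes, by the test of the difference itself (limma, adjusted p below 0.01). The family was chosen on the same contrast, so these values describe it. On the log2 scale, DCIS.COM minus MCF10A, the difference was 1.81 for H1-1, 0.94 for H1-2 and 1.13 for H1-4. It was 1.42 for H2AC11, 0.95 for H2AC16, 1.02 for H2AC18 and 1.03 for H2AC19. Of the H2B genes it was 1.14 for H2BC12, 1.60 for H2BC14, 1.43 for H2BC18, 1.65 for H2BC6 and 1.66 for H2BC7. Of the H3 genes it was 1.63 for H3C1, 2.35 for H3C12, 1.10 for H3C14 and 1.11 for H3C15. Of the H4 genes it was 0.97 for H4C14, 0.97 for H4C15 and 1.34 for H4C5. Groups of 2 libraries are too small for a check for outlying samples.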

How the results depend on the processing

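The counts of called histone genes kept within 1.5 times their main value under each alternative run. Over the alternatives other than left-out libraries they ranged from 48 to 61 in MCF10A, 47 to 57 in DCIS.COM and 47 to 58 for the difference between responses. Between the lines they ranged from 50 to 59 with pLOC-empty and 48 to 59 with pLOC-MALINC1. The lower end of each range came from the run without the 10 members that share over 50% of their windows. Only 51 members remained in that run, so its counts are not out of 61. Leaving out 1 library at a time gave 56 to 58, 55 to 57, 57, 55 to 58 and 54 to 58 in the same order. The labels do not say whether replicate numbers pair the libraries. Deviations of same-numbered libraries correlated at -0.156 in MCF10A and 0.111 in DCIS.COM over 10742 genes. With 2 libraries per group these values cannot decide it. With the replicate block the counts were 57, 57, 57, 56 and 55, and with the numbers crossed in MCF10A, chosen after seeing the data, 58, 57, 57, 56 and 59. On plain library totals, chosen after seeing the data, the median of all genes moved to 0.13 in DCIS.COM and to 0.10 and 0.20 between the lines; without small RNAs it was 0.15 and 0.19 between the lines, and with median centring 0.10 with pLOC-MALINC1. Of the single genes named, 940 values under alternatives kept their direction and their side of the threshold, 12 no longer passed it and 12 newly passed it, none with a change of direction. Those that no longer passed were of H3C12 in either line, H4C6 in MCF10A and H2AC16. The cause was not tested. No difference between responses exists with the groups of each line fitted alone. Depth limits H3C12 and the 4 genes at or near 0 in DCIS.COM.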
